A study of Mus musculus with 58 samples.

Results

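Slc38a2 and 7 other amino acid transporter genes (Slc38a1, Slc38a3, Slc7a5, Slc3a2, Slc1a2, Slc1a5 and Slc6a6) were followed over the day in control and diabetic mouse retinas, as 8 of the 52459 gene symbols that were counted. All 8 passed the filter on low values and so were among the 19120 expressed genes, those with a median above 4 normalized counts over all libraries. The members are named genes of one function, and Slc38a2 was selected on its difference between diabetic and control retinas in earlier results of these data. Its values in that comparison are therefore given as a description with no test, while the 7 other members were tested in it, and the daily rhythm was tested for all 8.

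Single retinas were taken from male mice aged 4 months, either wild-type littermates or heterozygotes of the C57BL/6-Ins2Akita/J line, in which a mutant insulin misfolds, beta cells are lost and the mice become diabetic. Both genotypes were kept in a cycle of 12 h light and 12 h dark from birth and were sampled at ZT1, 5, 9, 13, 17 and 21, where ZT0 is lights on and ZT12 lights off, with the night points collected under dim red light after perfusion with cold saline. Total RNA depleted of ribosomal RNA was sequenced in 30 control and 28 diabetic libraries, with 4 to 6 control and 4 or 5 diabetic libraries per time point. The model is 1 mutation, in 1 sex and at 1 age, with no second model of diabetes.

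Amino acid transporters are membrane proteins of the solute carrier families that move amino acids with sodium or in exchange for another amino acid. In the retina, glutamate released by photoreceptors and bipolar cells is cleared by glutamate carriers, converted to glutamine in Muller glia and returned to neurons through system N and system A carriers. Neutral amino acids such as leucine enter from the blood through a dimer of a transporting light chain and a heavy chain, and taurine, an osmolyte needed by photoreceptors, is taken up by its own carrier.

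The libraries held 7773117 to 22147398 counted reads, with medians of 15260958 in control and 15471731 in diabetic libraries. Retinal markers were high in each library, with a summed level of the 7 rod markers of 523053 to 790578 normalized counts, and the 5 hemoglobin and red cell markers summed to 190 or less. Of the control libraries, 3 carried lens RNA, with 22024 to 32013 normalized counts summed over 7 lens markers against 702 or less in the other libraries, and they were replicate 6 at ZT1, replicate 5 at ZT17 and replicate 2 at ZT21. Since the retinas were sequenced whole, fewer cells of a type and less RNA per cell cannot be told apart.

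Slc38a2 lies on chromosome 15 at 96687392 to 96699730, on the minus strand (GRCm38, Gencode M21), beside its paralog Slc38a1 at 96571418 to 96642913 on the same strand. The other members lie on chromosomes 9 (Slc38a3), 8 (Slc7a5), 19 (Slc3a2), 2 (Slc1a2), 7 (Slc1a5) and 6 (Slc6a6). No exon of 6 members overlapped an exon of another gene, and the genes overlapping Slc1a2 and Slc6a6 on the other strand averaged at most 2.2 normalized counts.

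Promoter sequences were at hand for only 3 of the 8 members, and all 3 are shown. Slc38a2 had the largest difference between genotypes of the 8 and Slc1a2 the lowest rhythm p-value in diabetic retinas. Slc3a2 had neither a called difference nor a called rhythm. Each line is the 250 bases before the RefSeq start of the gene (GRCm38.p6), from 5′ to 3′ on the gene's strand, at chr15:96699729-96699978 on the minus strand for Slc38a2, chr2:102706188-102706437 on the plus strand for Slc1a2 and chr19:8713898-8714147 on the minus strand for Slc3a2. The RefSeq starts of Slc1a2 and Slc3a2 lie inside the Gencode M21 genes (102658659 to 102790784 and 8706882 to 8723369), so their windows belong to an internal start of the Gencode gene, while that of Slc38a2 ends at the Gencode start. Capitals mark the motifs found.
Slc38a2: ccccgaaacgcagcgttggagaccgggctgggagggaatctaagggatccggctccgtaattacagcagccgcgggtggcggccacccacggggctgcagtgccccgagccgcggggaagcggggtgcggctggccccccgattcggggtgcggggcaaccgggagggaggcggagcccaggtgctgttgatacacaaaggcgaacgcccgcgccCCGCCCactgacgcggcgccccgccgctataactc
Slc1a2: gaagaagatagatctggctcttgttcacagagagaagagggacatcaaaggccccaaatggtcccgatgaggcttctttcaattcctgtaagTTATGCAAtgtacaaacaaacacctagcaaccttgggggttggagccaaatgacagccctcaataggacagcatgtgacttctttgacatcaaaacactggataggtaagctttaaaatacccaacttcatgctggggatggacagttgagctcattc
Slc3a2: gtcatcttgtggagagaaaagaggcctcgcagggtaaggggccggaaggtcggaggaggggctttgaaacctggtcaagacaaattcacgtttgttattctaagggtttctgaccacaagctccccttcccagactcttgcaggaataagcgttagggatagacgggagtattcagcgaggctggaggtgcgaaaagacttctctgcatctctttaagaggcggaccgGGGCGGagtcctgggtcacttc
The motifs searched on both strands were the E-box CACGTG, the core of the amino acid response element TGATGNAA, the D-box TTATGNAA, the GC box GGGCGG and the CCAAT box. Slc38a2 held 1 GC box, read on the opposite strand and beginning 35 bases before the start, and Slc3a2 held 1 at 22 bases, a motif present in 32.7% of the 32851 promoters of the same length. Slc1a2 held 1 D-box at 158 bases, a motif present in 3.07% of these promoters. No match to the E-box (6.02% of promoters), the amino acid response core (3.45%) or the CCAAT box (33.8%) was found in the 3 windows. These matches are a description of the letters in the windows.

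Per kilobase of exon, Slc6a6 was the highest of the 8 transcripts in control retinas, at 4048 ± 326 normalized counts per kilobase (SD, n = 30), followed by Slc38a3 at 1526 ± 140, Slc1a2 at 901 ± 69.1, Slc3a2 at 388 ± 50.8 and Slc38a1 at 279 ± 13.9. Slc7a5, at 188 ± 24.8 per kilobase, and Slc38a2, at 186 ± 14.5, did not differ beyond their spread, and Slc1a5 was the lowest at 30.5 ± 3.81. In diabetic retinas the order was that of the controls except that Slc38a2, at 244 ± 45.3 per kilobase (SD, n = 28), stood above Slc7a5, at 190 ± 23.0, with a gap that was about as wide as the spread of Slc38a2.

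Slc38a2 encodes the system A transporter SNAT2, which brings small neutral amino acids such as alanine and glutamine into cells together with sodium, and which is known to be raised when amino acids are scarce or the medium is hypertonic. Its transcript was higher in diabetic retinas throughout the day, with 2156 ± 400 normalized counts in diabetic libraries (SD, n = 28) against 1640 ± 128 in controls (SD, n = 30). Of the 28 diabetic libraries, 27 were above the control median and 20 were above the highest of the 30 control libraries. The fitted log2 fold change was 0.39 ± 0.05 (SE), which is 1.31-fold. In the same comparison, 574 of the 19120 expressed genes (3%) were called by edgeR's quasi-likelihood test at an adjusted p-value of 0.05, with 303 higher and 271 lower in diabetic retinas, and 2974 (15.6%) had an unadjusted p-value under 0.05.

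In the morning, at ZT1, the control libraries held 1467, 1573, 1585, 1644 and 1694 normalized counts of Slc38a2, and the diabetic libraries 1491, 1766, 1814, 2293 and 2374. The groups overlapped through 1 diabetic library, and the other 4 were above every control. At ZT5 the 6 controls held 1439, 1480, 1551, 1590, 1610 and 1691 and the 5 diabetic libraries 1949, 1987, 2079, 2100 and 2126, so that the groups were apart and both were narrow. At ZT9 the controls held 1445, 1581, 1594, 1668 and 1707 and the diabetic libraries 1815, 1990, 2262, 2874 and 2905, again without overlap, and with 2 diabetic libraries far above the others.

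After lights off the pattern was similar. At ZT13 the controls held 1529, 1766, 1775, 1808 and 1811 normalized counts of Slc38a2 and the 4 diabetic libraries 2006, 2026, 2069 and 2226, with no overlap. At ZT17 the controls held 1446, 1543, 1687, 1791 and 1954 and the diabetic libraries 1983, 2094, 2626 and 3093, apart by a narrow gap, and with the highest value of the series. At ZT21 the controls held 1606, 1658, 1746 and 1771 and the diabetic libraries 1657, 1699, 1915, 2261 and 2877. The groups overlapped there, since 2 of the 5 diabetic libraries were inside the control range.

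**Figure D1:**
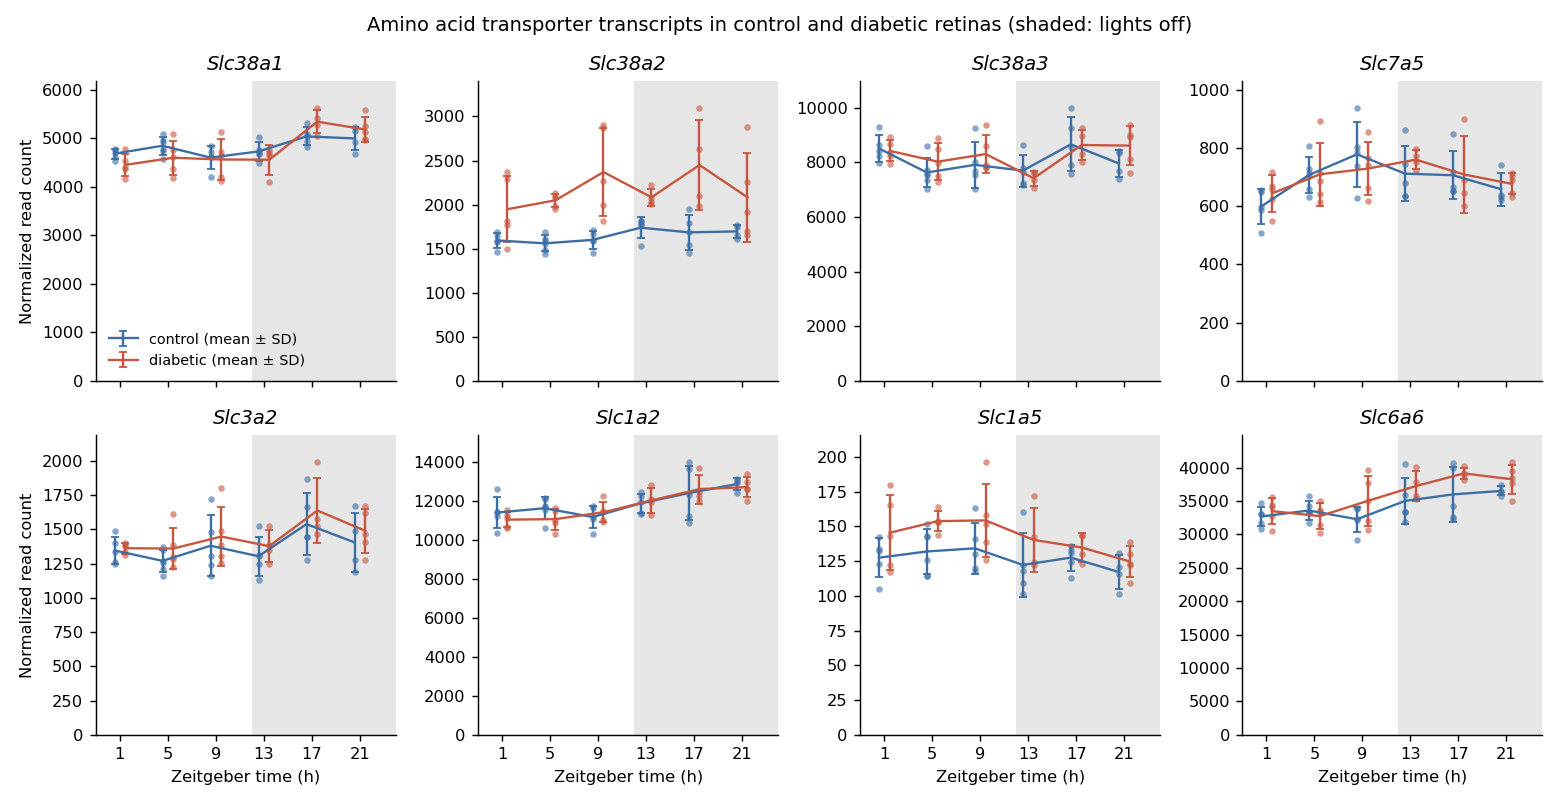
Normalized read counts of the 8 transporter transcripts against Zeitgeber time in hours, with 1 point per retina and lines through the mean ± SD of control (blue) and diabetic (red) libraries, and the dark phase shaded. The diabetic Slc38a2 libraries sit above all control libraries of the same time point at ZT5, ZT9, ZT13 and ZT17, while the genotypes overlap at each time point in the 7 other panels.

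Every diabetic library was above every control library at 4 of the 6 time points for Slc38a2. A gene reached this at a single time point in 0.413% of the expressed genes at ZT5, 0.34% at ZT9, 0.628% at ZT13 and 0.921% at ZT17, in 0.434% and 1.18% at ZT1 and ZT21, where Slc38a2 did not, and at 4 or more time points in 3 genes (0.0157%), Slc38a2 among them. The 7 other members had no time point at which the groups were apart in either direction. From low to high, the log2 fold changes of Slc38a2 were 0.26 ± 0.12 (SE) at ZT13, 0.29 ± 0.12 at ZT1, 0.30 ± 0.12 at ZT21, 0.39 ± 0.11 at ZT5, 0.54 ± 0.12 at ZT17 and 0.56 ± 0.12 at ZT9. Without diabetic replicate 5 the ZT21 value was 0.15. With all libraries they were between 1.20-fold and 1.47-fold, with the larger values at ZT9 and ZT17, when single diabetic libraries were highest.

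Diabetic retinas varied more in Slc38a2 at 4 of the 6 time points. Pooled over time points, the SD of its log2 value within the groups of 1 genotype and time point was 0.25 in diabetic and 0.11 in control libraries, a ratio of 2.40. Over the 11233 genes with a mean of at least 100 normalized counts, the median of this ratio was 0.98, and 1 gene had a higher ratio than Slc38a2. The wide groups were ZT1, ZT9, ZT17 and ZT21, with SDs of 374 to 513 normalized counts, and the narrow ones ZT5 and ZT13, with SDs of 76.0 and 99.7, which were below the control SDs of 91.4 and 118. The highest values at ZT9, ZT17 and ZT21 were those of the diabetic libraries numbered 4 and 5, which were the lowest at ZT1. Within the diabetic libraries Slc38a2 had a correlation of -0.031 with depth, 0.084 with the share of mitochondrial transcripts, 0.204 with the sum of the Muller glia markers, 0.341 with endothelial, 0.235 with lens and -0.16 with blood markers (Pearson's r on the log2 scale, n = 28 libraries, as a description). The highest of the 15 marker lists was that of cones, at 0.409. Within the 30 controls the value for cones was -0.0755, and the marker lists ran from -0.314 for rods to 0.354 for pericytes and 0.556 for horizontal cells. The part of these measures in the level of Slc38a2 was not tested.

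Slc38a1, the second system A carrier, is the paralog of Slc38a2, found mainly in neurons. It held 4195 to 5312 normalized counts in control and 4094 to 5614 in diabetic libraries, with a log2 fold change of -0.012 ± 0.028 (SE) and a 95% interval of -0.07 to 0.04. No difference between genotypes was called (adjusted p = 0.90 in edgeR's quasi-likelihood test with Benjamini-Hochberg adjustment over the 19120 genes). Slc38a3, the system N carrier through which glia exchange glutamine, held 7014 to 9983 normalized counts in control and 7063 to 9387 in diabetic libraries. The difference was 0.035 ± 0.032 on the log2 scale (interval -0.03 to 0.10, edgeR adjusted p = 0.68).

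Slc7a5, the light chain that exchanges leucine and other large neutral amino acids, held 508 to 937 normalized counts in control and 548 to 901 in diabetic libraries. With a log2 fold change of 0.015 ± 0.046 it was not called (interval -0.08 to 0.10, edgeR adjusted p = 0.94). Slc3a2, the heavy chain that carries Slc7a5 to the membrane, held 1131 to 1864 in control and 1225 to 1989 in diabetic libraries. Its log2 fold change of 0.07 ± 0.04 also missed the threshold (interval -0.02 to 0.16, edgeR adjusted p = 0.46), although 22 of the 28 diabetic libraries were above its control median.

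Slc1a5 exchanges glutamine, serine and other small neutral amino acids, and its transcript was the lowest of the 8. It held 101 to 163 normalized counts in control and 109 to 196 in diabetic libraries, with 20 of the 28 diabetic libraries above the control median and 5 above all controls. Its log2 fold change was 0.16 ± 0.05 (SE), with an interval of 0.06 to 0.26. At an unadjusted p-value of 0.0024 it was the member closest to a call, and it missed the threshold after adjustment (edgeR adjusted p = 0.066). The adjusted p-value lay between 0.028 and 0.125 over the 6 other settings that were run, and it passed the threshold with time point as a factor in the fit, at 0.028. It also passed, with values down to 0.038, when 1 library was left out in 5 of 58 cases, which were control replicates 1 at ZT5, 4 at ZT9 and 5 at ZT13 and diabetic replicates 1 at ZT1 and 1 at ZT21. At the single time points its log2 fold change was 0.22 ± 0.11 at ZT5, 0.21 ± 0.12 at ZT9, 0.20 ± 0.12 at ZT1 and 0.19 ± 0.13 at ZT13, and lower later in the night, at 0.09 ± 0.13 at ZT21 and 0.08 ± 0.12 at ZT17. The libraries of the genotypes overlapped at each of them.

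Slc1a2, the high-affinity glutamate carrier GLT-1, held 10268 to 13960 normalized counts in control and 10284 to 13670 in diabetic libraries. The log2 fold change was -0.0094 ± 0.029 (interval -0.07 to 0.05, edgeR adjusted p = 0.93). Slc6a6, the taurine carrier, was the most abundant of the 8 transcripts, at 29155 to 40754 in control and 30211 to 40778 in diabetic libraries. Between genotypes its log2 fold change was 0.065 ± 0.033, with an interval of 0.0007 to 0.13 and an edgeR adjusted p-value of 0.33.

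Over all time points 0 of the 7 tested members were called, by edgeR or by DESeq2, and 1 of the 7, Slc1a5, had an unadjusted p-value under 0.05, beside 3% of all expressed genes called and 15.6% under 0.05. At the single time points 0 of the 7 were called by either tool, and none of them had an edgeR unadjusted p-value under 0.05 at any of the 6. The background was low there, with 0.173% of the expressed genes called at ZT17, 0.0209% at ZT5, 0.0105% at ZT1, 0.00523% at ZT9, and 0% at ZT13 and ZT21, where 851 and 882 genes had an unadjusted p-value under 0.05 and DESeq2 called 1 and 2 genes. A count of 0 members is therefore near the background at each time point.

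**Figure D2:**
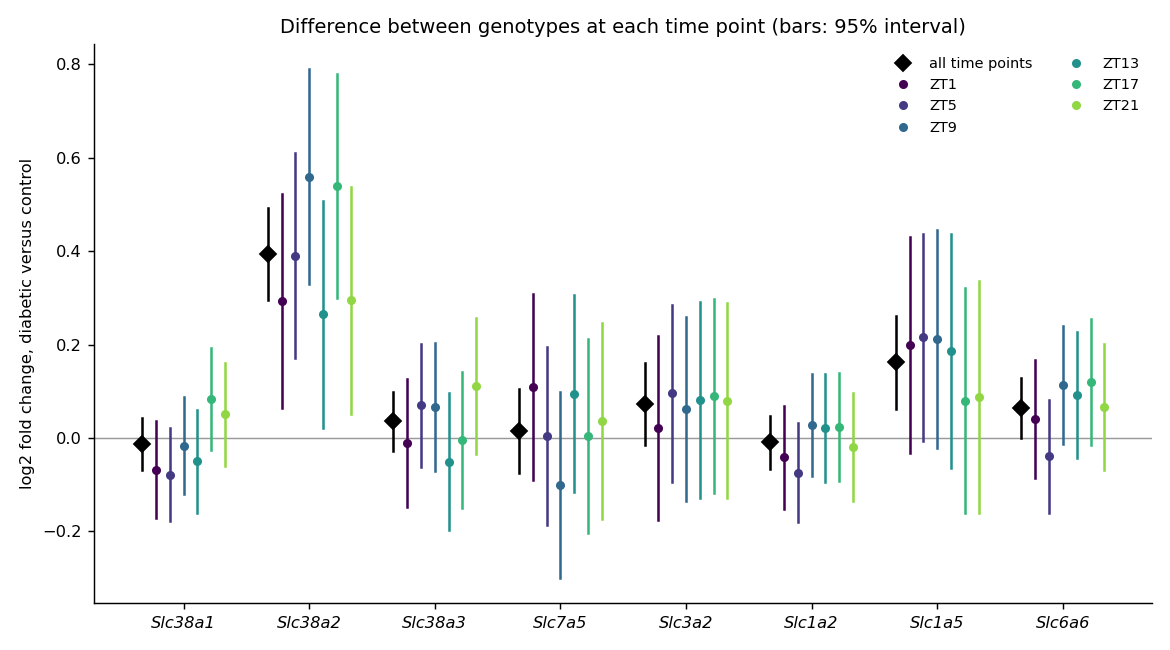
Log2 fold change of diabetic against control retinas for each of the 8 transporters, over all time points (black diamonds) and at each time point (circles from ZT1, dark, to ZT21, light), with 95% intervals as bars. Slc38a2 is positive at all 6 time points, from 0.26 to 0.56, Slc1a5 is positive at all 6 with intervals that reach 0 at each, and the other 6 members lie near 0.

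The daily course was then tested within each genotype. A transcript was called rhythmic at an unadjusted p-value under 0.05 in the empirical JTK_CYCLE test, which ranks the libraries against 24 h waveforms and takes its p-value from permuted series, provided that its highest library exceeded its lowest by a ratio of 5/4. Among expressed genes, this called 21.8% in control retinas and 23.9% in diabetic ones. Of the 8 members, 4 were called in controls (Slc38a1, Slc38a2, Slc7a5 and Slc1a2) and 4 in diabetic retinas (Slc38a1, Slc38a3, Slc1a2 and Slc6a6). Amplitudes were small, between 3.34% and 10.1% of the mean, and the acrophase, the fitted peak time, was in the dark phase in both genotypes for 6 of the 8.

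For the genes below, the libraries shown are mostly those of the time points with the lowest and highest means, which were chosen by these values and are a description. Slc6a6 had its acrophase at night in diabetic retinas. Its diabetic libraries held 30211, 31413, 33330, 33662 and 35025 normalized counts at ZT5 and 38179, 38938, 39166 and 40205 at ZT17. The relative amplitude was 9.26 ± 1.71% (SE) with an acrophase of ZT16.8, and the rhythm was called (permutation p = 0.00056, adjusted p = 0.012). The highest of its time point means was 1.20-fold the lowest, and so it was not called where the ratio of 5/4 was required of the means, nor were Slc1a2 (1.15-fold), Slc38a3 (1.16-fold) and Slc38a1 (1.20-fold) in diabetic retinas. In controls this rule also ended the calls of Slc38a2 (1.11-fold), Slc1a2 (1.15-fold) and Slc38a1 (1.095-fold), and Slc7a5 was still called. The control libraries held 35782, 36326, 36486 and 37407 at ZT21 and 29155, 32183, 32308, 33772 and 33880 at ZT9. The control amplitude was 5.45 ± 1.85% with an acrophase of ZT18.0, and its p-value of 0.055 narrowly missed the threshold, which it passed in the edgeR test of a 24 h cosine (edgeR unadjusted p = 0.031) and when any 1 of 9 of the 30 control libraries was left out, with permutation p-values down to 0.020.

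Slc1a2 was called rhythmic in both genotypes, with its acrophase at ZT19.0 in control and ZT17.3 in diabetic retinas. The diabetic libraries held 10615, 10622, 11095, 11259 and 11532 normalized counts at ZT1 and 11993, 12572, 12575, 12974 and 13349 at ZT21. The relative amplitude there was 7.70 ± 1.34% (permutation p = 0.00016, adjusted p = 0.0056). In controls it was 5.64 ± 1.74%, at a p-value of 0.0495 just under the threshold (adjusted p = 0.22), and the call was lost without the 3 lens libraries (permutation p = 0.126), with TMM factors (0.060) and when any 1 of 14 of the 30 control libraries was left out, with p-values up to 0.106.

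Slc38a1 had its highest mean at ZT17 in both genotypes. Its diabetic libraries held 4163, 4369, 4397, 4528 and 4781 normalized counts at ZT1 and 5051, 5267, 5421 and 5614 at ZT17, with an amplitude of 8.12 ± 1.99% and an acrophase of ZT18.3 (permutation p = 0.0023, adjusted p = 0.030). In controls the amplitude was 3.34 ± 1.18%, the lowest of the 8, with an acrophase of ZT19.5 (permutation p = 0.024, adjusted p = 0.14). The control call was lost without the 3 lens libraries (permutation p = 0.054) and in the edgeR cosine test, where the p-value was 0.118. It was also lost without control replicate 3 at ZT9 or replicate 2 at ZT17, with permutation p-values up to 0.060.

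Slc38a2 was called rhythmic in controls and not in diabetic retinas. Its control mean was lowest at ZT5, at 1560 ± 91.4 normalized counts (SD, n = 6), and highest at ZT13, at 1738 ± 118 (SD, n = 5), with an amplitude of 5.02 ± 1.78% and an acrophase of ZT16.3. The p-value of 0.0495 was just under the threshold and did not pass after adjustment (adjusted p = 0.22). Without the 3 lens libraries it was 0.075 and with TMM factors 0.054, and the call was lost when any 1 of 20 of the 30 control libraries was left out. In diabetic retinas the amplitude of 7.94 ± 4.97% was numerically larger and far less certain, and the rhythm was not called (permutation p = 0.48).

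Slc7a5 was the member with its acrophase closest to the end of the day, at ZT10.8 in control and ZT11.8 in diabetic retinas. Control libraries held 508, 588, 596, 648 and 655 normalized counts at ZT1 and 630, 737, 786, 804 and 937 at ZT9, overlapping through the lowest ZT9 library. The control amplitude of 9.94 ± 3.10% was called (permutation p = 0.019, adjusted p = 0.125), also when each library was left out in turn. The diabetic amplitude was 7.01 ± 3.06%, and it was not called (permutation p = 0.145).

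Slc3a2, the partner of Slc7a5, was not called in either genotype, except in diabetic retinas without replicate 2 at ZT21 (permutation p = 0.049), with amplitudes of 6.62 ± 3.21% in control and 6.91 ± 3.15% in diabetic retinas and acrophases of ZT17.9 and ZT17.0. The heavy and light chain transcripts thus had fitted peaks some hours apart in both genotypes, which was not tested. Slc38a3 was called in diabetic retinas (permutation p = 0.039, adjusted p = 0.18), with an amplitude of 4.33 ± 2.04% and an acrophase of ZT22.1, but was not called in the edgeR cosine test, at a p-value of 0.161, nor when any 1 of 13 of the 28 diabetic libraries was left out, with p-values up to 0.098. In controls its amplitude was 4.59 ± 2.35% and it was not called (permutation p = 0.24).

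Slc1a5 had its fitted peak near midday, at ZT7.15 in control and ZT7.00 in diabetic retinas. Its diabetic mean was 154 ± 26.4 normalized counts at ZT9 (SD, n = 5) and 125 ± 11.2 at ZT21 (SD, n = 5), with an amplitude of 10.1 ± 3.47%. The p-value of 0.054 missed the threshold in diabetic retinas, and it passed with TMM factors (0.038), in the edgeR cosine test (0.016) and when any 1 of 7 of the 28 diabetic libraries was left out, with permutation p-values down to 0.023. In controls the amplitude was 4.69 ± 3.25% (permutation p = 0.55).

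**Figure D3:**
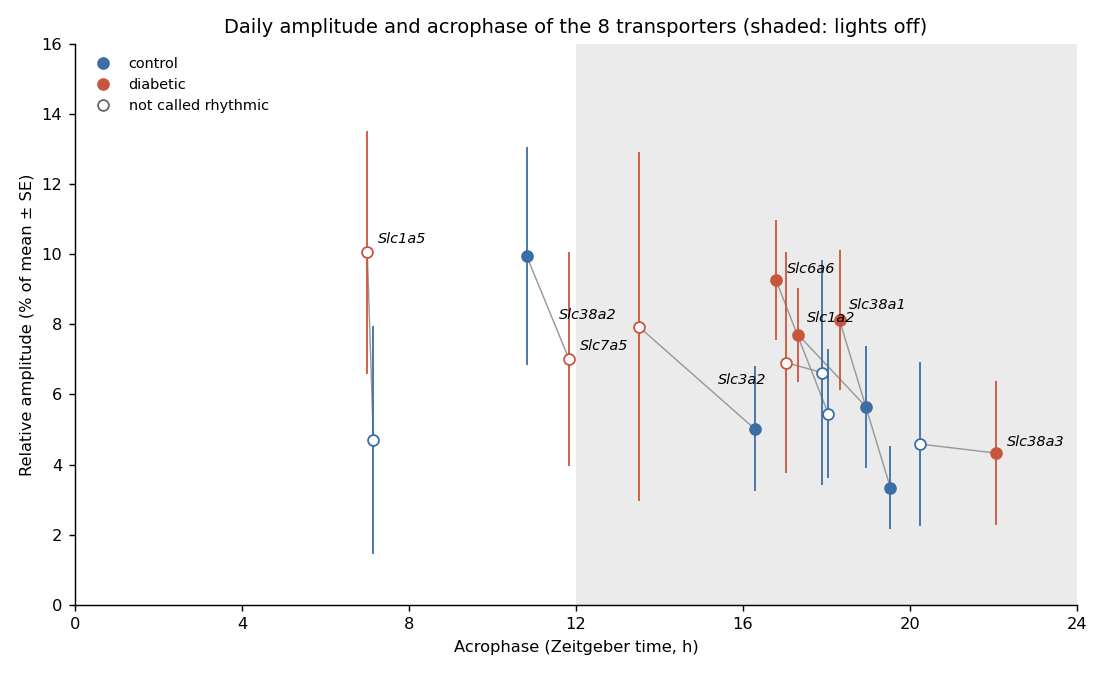
Relative amplitude, in percent of the mean with its SE, against acrophase in Zeitgeber time for the 8 transporters in control (blue) and diabetic (red) retinas, with open symbols for transcripts not called rhythmic, grey lines joining the genotypes of a gene and the dark phase shaded. Slc1a5 and Slc7a5 peak before lights off and the other 6 after it, and the amplitudes of Slc6a6, Slc1a2 and Slc38a1 are 9.26%, 7.70% and 8.12% in diabetic retinas.

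A call in 1 genotype and not in the other does not show that the rhythms differ, so the difference was tested with the interaction of genotype with the cosine and sine of 24 h in edgeR. It called 0 of the 19120 expressed genes (0%), with 643 genes at an unadjusted p-value under 0.05 and 0 genes called by DESeq2. The 643 genes were less than a 0.05 share of the expressed genes. A missing call does not show that the rhythms were alike. None of the 8 members passed, with unadjusted p-values between 0.109 (Slc38a1) and 0.94 (Slc3a2), and 0.53 for Slc38a2. The difference in acrophase, diabetic minus control, was -2.78 to -0.147 h for 6 members, 1.83 h for Slc38a3 and 1.01 h for Slc7a5, and these shifts have no test other than that of the interaction.

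Other genes of amino acid transport and use were taken from 6 lists. Of the 36 other plasma membrane amino acid transporters, 31 were expressed, and 0 of them were called over all time points or at a single one, by edgeR or DESeq2. Their log2 fold changes lay between -0.46 and 0.21 with a median of 0.015, beside a median of 0.0008 over all expressed genes, and 16 of the 31 were positive. In 5 of the 31 the unadjusted p-value was under 0.05, a share close to the 15.6% of all expressed genes. The 3 with the lowest p-values were Slc6a5, a neuronal glycine carrier (-0.08 ± 0.03 SE), Slc1a6, a glutamate carrier (0.15 ± 0.06), and Slc38a5, a system N carrier (-0.46 ± 0.20, at only 5.81 normalized counts in control and 4.34 in diabetic libraries). Slc38a2 was thus further from 0 than each of the 31 except Slc38a5.

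Of the 20 transporters of vesicles, lysosomes and mitochondria, all 20 were expressed, 0 were called by edgeR or DESeq2 and 3 had an unadjusted p-value under 0.05, again close to the 15.6% of all expressed genes. Their median log2 fold change was 0.004, and 11 of 20 were positive. The 3 with the lowest p-values were Slc17a7, which fills photoreceptor and bipolar cell vesicles with glutamate (-0.09 ± 0.04), the amino acid carrier Slc36a4 (0.08 ± 0.04) and the mitochondrial glycine carrier Slc25a38 (-0.10 ± 0.04).

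The transcription factor ATF4 raises Slc38a2, Slc3a2, Slc7a5 and enzymes of amino acid synthesis when amino acids are short. Of the 25 other genes of this response, 25 were expressed, 0 were called by edgeR or DESeq2, beside 3% of all expressed genes, and 4 had an unadjusted p-value under 0.05, beside 15.6%, with 14 of 25 positive and a median log2 fold change of 0.014. Atf4 itself was at 2279 ± 367 normalized counts in control (SD, n = 30) and 2560 ± 394 in diabetic libraries (SD, n = 28), a log2 fold change of 0.17 ± 0.06 that missed the threshold (edgeR adjusted p = 0.091). The serine synthesis enzyme Phgdh (-0.34 ± 0.11, edgeR adjusted p = 0.069) and Chac1, which degrades glutathione (-0.21 ± 0.09, edgeR adjusted p = 0.26), had values of the opposite sign.

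Of 8 genes of osmotic response and osmolytes, 0 were called by edgeR or DESeq2 and 0 had an unadjusted p-value under 0.05. Nfat5, the transcription factor that raises Slc38a2 and Slc6a6 under hypertonic stress, had a log2 fold change of 0.044 ± 0.039, the chaperone Hspa4l -0.033 ± 0.037 and the water channel Aqp4 -0.033 ± 0.051, and 1 of the 8 was positive. Of 22 genes through which amino acids act on the kinase mTORC1, 0 were called by edgeR or DESeq2 and 3 had an unadjusted p-value under 0.05 (15.6% of all expressed genes), with a median of -0.0087 and 9 of 22 positive. Those 3 were the kinase gene Mtor (-0.05 ± 0.02), its partner Rptor (-0.08 ± 0.03) and the Ragulator subunit Lamtor4 (-0.12 ± 0.04, edgeR adjusted p = 0.054).

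Of 14 genes of glutamate and glutamine metabolism, 1 was called, the branched-chain aminotransferase Bcat1, which was at 3135 ± 161 normalized counts in control (SD, n = 30) and 3351 ± 257 in diabetic libraries (SD, n = 28). Its log2 fold change was 0.10 ± 0.03 (edgeR adjusted p = 0.022). The median of the list was 0.018 with 10 of 14 positive, and the next genes by p-value were Got2 (0.07 ± 0.04) and Bcat2 (0.06 ± 0.05), neither called. Bcat1 was also called by DESeq2, and it was the one gene called among the 125 entries of the 6 lists, where 3% of all expressed genes were called.

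**Figure D4:**
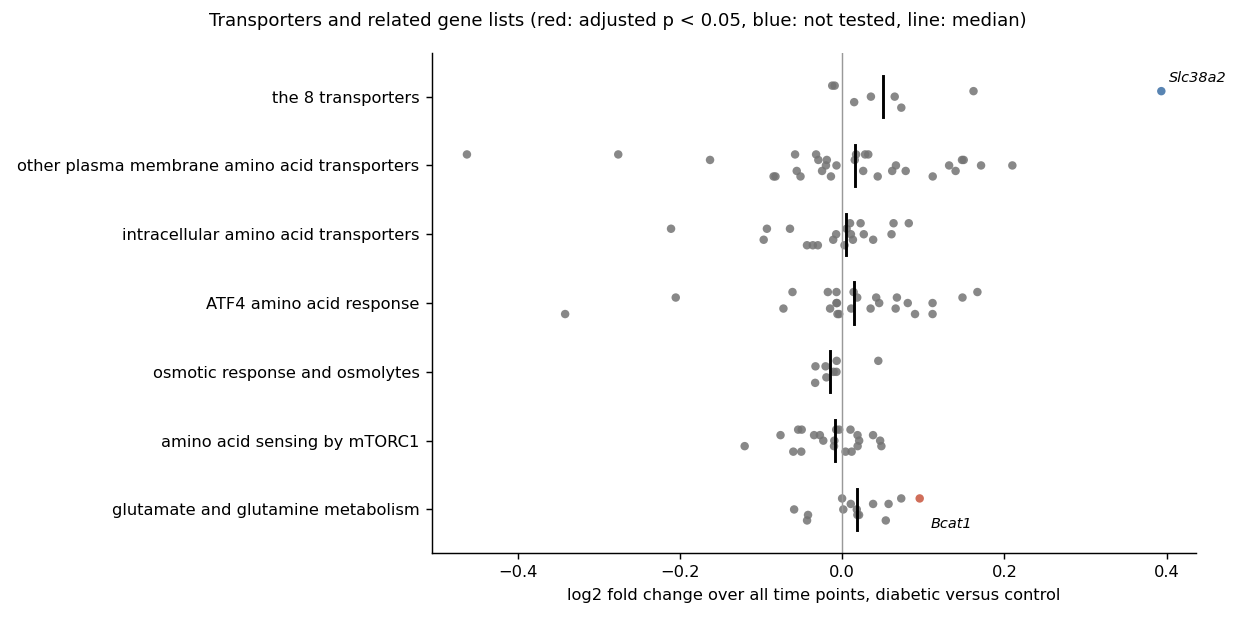
Log2 fold change of diabetic against control retinas over all time points for the 8 transporters and for the expressed genes of 6 lists, with 1 point per gene, black lines at the medians, red for an adjusted p-value under 0.05 and blue for Slc38a2, which was not tested. Slc38a2, at 0.39, stands apart from the other points on the positive side, and Bcat1, at 0.10, is the one red point.

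Markers of retinal cell types were read in the same libraries. Of the 7 rod markers 1 was lower (Pde6a, log2 fold change -0.09 ± 0.03) and 0 were higher, beside 3% of all expressed genes called, with a median of -0.09 and a summed level of 535223 to 790578 normalized counts in control and 523053 to 722847 in diabetic libraries. Of the 6 cone markers 2 were lower (Gnat2, -0.12 ± 0.03, and Pde6h, -0.14 ± 0.03) by edgeR and 3 were called by DESeq2, which called 668 of the 19120 genes, with a median of -0.12 and sums of 10763 to 12996 and 10219 to 12713. At single time points DESeq2 called 1 cone marker at ZT1 and 1 at ZT5, where it called 8 and 24 of the 19120 genes. None of the 7 rod, 6 cone and 7 bipolar cell markers had a positive value, and of the bipolar markers 0 were called, with a median of -0.10 and sums of 18701 to 28305 and 17273 to 26779. An unadjusted p-value under 0.05 was found for 4 of the 7 rod, 4 of the 6 cone and 3 of the 7 bipolar markers, beside 15.6% of all expressed genes, and for 2 of 4 astrocyte, 2 of 6 microglia, 2 of 9 Muller glia, 2 of 7 ganglion cell, 1 of 8 amacrine, 1 of 4 horizontal cell, 1 of 6 pigment epithelium, 3 of 3 lens and 0 of 7 endothelial and 5 pericyte markers. The 6 pigment epithelium markers had a median of -0.11 and sums of 415 to 4246 and 346 to 4561, with 0 called by edgeR and 3 called by DESeq2 at ZT5, where DESeq2 called 24 of the 19120 genes. Of the 9 Muller glia markers 0 were called, with a median of -0.033 and sums of 51571 to 73737 and 49178 to 75319, and of the 4 astrocyte markers 0 were called, with a median of 0.17 and sums of 223 to 431 and 285 to 727. The endothelial and pericyte lists had 0 genes called of 7 and 5, with medians of 0.013 and -0.023. Of the 6 microglia markers tested 1, Cx3cr1, was lower (-0.23 ± 0.07) and 0 were positive, with a median of -0.09 and sums of 253 to 427 and 233 to 404. Of the 8 amacrine cell markers 1, Chat, was higher (0.19 ± 0.06), while 3 of the 8 were positive and the median was -0.011, with sums of 13019 to 16032 and 13069 to 16479. The 7 ganglion cell and 4 horizontal cell markers had 0 called, 6 and 3 positive, and medians of 0.06 and 0.06. Of the 3 lens markers tested Cryaa was lower by edgeR (-5.01 ± 0.96), resting on the 3 control libraries with lens RNA, and DESeq2 called 0 of the 3. Without those 3 libraries the log2 fold change of Slc38a2 was 0.40 over all time points and 0.60 at ZT17. The part of these markers in the level of Slc38a2 was not tested.

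The expressed genes whose level across the 58 libraries was most like that of Slc38a2 were Btg1, an antiproliferative gene (Pearson's r of log2 values 0.79), Nfkbia, an inhibitor of NF-kappaB (0.71), Fzd4, the receptor for norrin (0.68), Ccng2, a cyclin (0.68), and Spire1, an actin nucleator (0.66), among 11233 genes. Btg1 held 1228 to 1617 normalized counts in control and 1282 to 1784 in diabetic libraries, and Nfkbia 241 to 410 and 259 to 597. Within the 28 diabetic and the 30 control libraries the values were 0.79 and 0.69 for Btg1 and 0.60 and 0.57 for Ccng2, but 0.72 and -0.17 for Nfkbia, 0.72 and 0.029 for Spire1 and 0.73 and 0.23 for Fzd4, so that 3 of the 5 genes were much less like Slc38a2 among the controls.

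After the means of the 12 groups were subtracted, which removes genotype and time, Btg1 was again the highest at 0.74, followed by Ipmk (0.67), Ccng2 (0.64), Npepps (0.64) and Ppp2r2a (0.64). Within control and diabetic libraries these values were 0.62 and 0.82 for Btg1, 0.36 and 0.79 for Ipmk, and 0.64 and 0.69 for Ccng2. They were 0.78 and 0.64 for Npepps and 0.58 and 0.74 for Ppp2r2a. Retinas of 1 group that were high in Slc38a2 thus tended to be high in these transcripts, least so for Ipmk among controls. The lowest correlation was that of Slc16a6, a monocarboxylate carrier family member (-0.83 over all libraries and -0.78 after subtraction), which was named after its values were seen and held 2584 to 3577 normalized counts in control and 1766 to 3361 in diabetic libraries. Its correlation was weaker within controls (-0.49, and -0.37 after subtraction) than within diabetic libraries (-0.80 and -0.87). These correlations share the libraries and their size factors and are descriptions. The other 7 transporters had correlations of -0.04 (Slc7a5) to 0.31 (Slc6a6) with Slc38a2 over all libraries, and of -0.23 to 0.30 after subtraction. Within the 30 controls the values after subtraction were -0.54 for Slc38a3 and Slc6a6, -0.53 for Slc7a5, -0.41 for Slc3a2, -0.17 for Slc1a5, 0.21 for Slc38a1 and 0.53 for Slc1a2, while in the diabetic libraries they were -0.13 (Slc7a5) to 0.31 (Slc6a6).

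**Figure D5:**
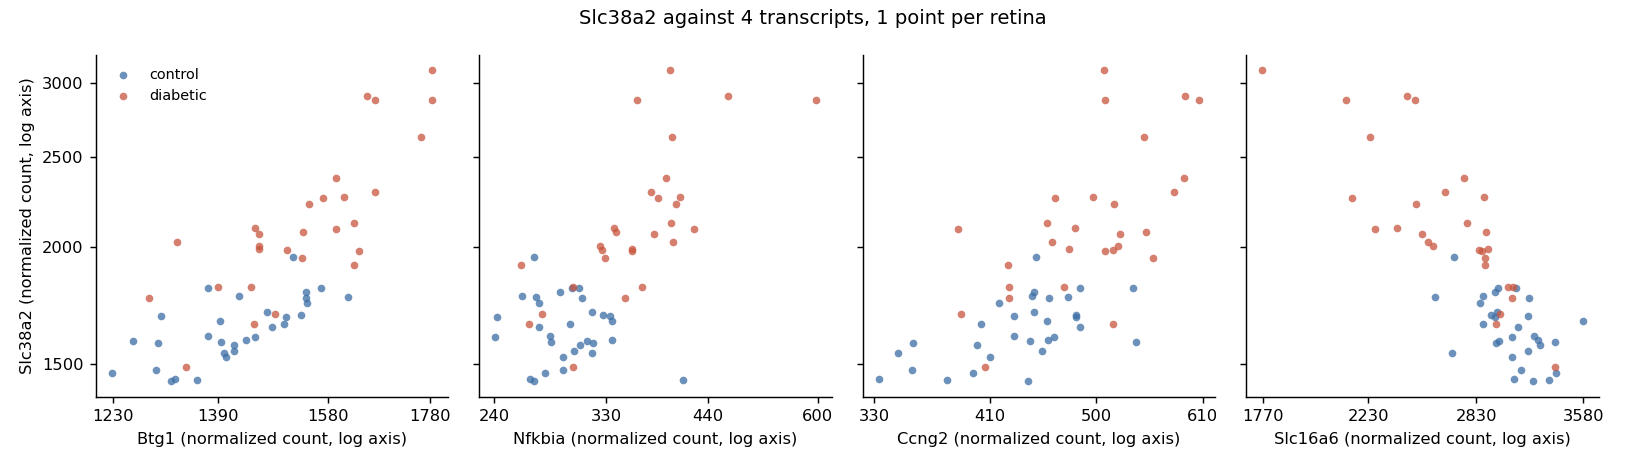
Normalized counts of Slc38a2 against those of Btg1, Nfkbia, Ccng2 and Slc16a6 on log axes, with 1 point per retina, control in blue and diabetic in red. Over all 58 libraries Slc38a2 rises with Btg1 (r = 0.79), Nfkbia (0.71) and Ccng2 (0.68), and falls with Slc16a6 (-0.83). Within control and diabetic retinas r is 0.69 and 0.79 for Btg1 and 0.57 and 0.60 for Ccng2. It is -0.17 and 0.72 for Nfkbia and -0.49 and -0.80 for Slc16a6.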

How the data were processed

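Reads of 58 libraries were aligned by the authors with STAR (2.7.4a) to GRCm38.p5, and HTSeq-count (0.11.1) gave counts per Gencode M15 gene. The deposited values are raw whole-number counts for 52459 symbols, and the strand setting of the counting is not given in the sources used here. Depth was 7773117 to 22147398 counts per library.

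Normalized counts were divided by DESeq2 (1.42.0) size factors. Differential expression used edgeR (4.0.16) quasi-likelihood tests with TMM factors in R 4.3.3, over all time points with 1 term for genotype, at each time point in a fit of 12 groups, and for the rhythm difference with interactions of genotype with a 24 h cosine and sine, in place of the study's DODR package. The empirical JTK_CYCLE test was written anew in Python 3.11.15 (30 waveforms, 1000000 shuffled series, 200000 for alternatives), with amplitudes and acrophases from least squares. Genotype p-values were Benjamini-Hochberg adjusted over 19120 genes. Intervals are 1.96 SE, and genotype tests were two-sided. The edgeR genotype and rhythm-difference tests and the empirical JTK_CYCLE test were checked on simulated data. The edgeR cosine test within a genotype and the DESeq2 tests were not.

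The 8 members and all lists were chosen with earlier results of these data known. Also named were list genes with an adjusted p-value under 0.05 or among the 3 lowest p-values of their list, and the 5 genes most correlated with Slc38a2 on log2(count + 1). Lengths came from Gencode M21. Of the listed genes, 3 were found under an older symbol. Libraries are single retinas that the methods call biological replicates. Animals are not named in the labels, so p-values measure the spread between retinas. Alternatives were size factors, DESeq2, no filter, a replicate block, time as a factor, other rhythm rules, each library left out and, chosen after seeing the data, the 3 lens libraries left out.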

Additional observations from a re-analysis of the deposited data

Results flagged for a closer look

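Of 96 groups of 1 transcript, genotype and time point, 3 had a library far from the others by Dixon's criterion, where chance flags about 1 in 20 groups. Slc38a2 in control replicate 4 at ZT13 was at 1529 normalized counts, below the other 4 at 1766 to 1811. Slc38a1 in diabetic replicate 5 at ZT13 was at 4094, below the other 3 at 4660 to 4763. Slc7a5 in control replicate 4 at ZT21 was at 743, above the other 3 at 620 to 639.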

How the results depend on the processing

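The log2 fold change of Slc38a2 over all time points was 0.37 to 0.40 under the 6 alternatives and 0.37 to 0.41 with each library left out, and that of Slc7a5 was -0.00067 to 0.032 with 1 library left out, turning its sign without diabetic replicate 3 at ZT17. The number of genes called over all time points was 920 with time point as a factor, which also called 1 member, and 430 to 611 with 1 library left out, with 0 or 1 members called. DESeq2 called 90 genes at ZT17, 24 at ZT5, 8 at ZT1, 4 at ZT9, 2 at ZT21 and 1 at ZT13. With no filter the counts were 1 at ZT1, 3 at ZT9 and 1 at ZT21, and 3 for the difference in rhythm. Without the 3 lens libraries they were 4 at ZT1 and 0 at ZT9. Leaving out 1 library gave 3 to 98 at ZT17, 2 to 8 at ZT5, 0 to 4 at ZT1 and at ZT9, 0 to 1 at ZT13 and at ZT21 and 0 to 1 for the difference in rhythm. With adjusted p-values 1573 control and 1874 diabetic genes were rhythmic, and 2532 and 2710 with the fold taken between time point means. Rhythmic members in controls were 0 with adjusted p-values, 2 with TMM factors, 1 with the fold between time point means, 1 without the lens libraries and 2 to 5 with 1 library left out. In diabetic retinas they were 0 with the fold between means and 3 to 5 with 1 library left out. The cause of these changes was not tested. With the replicate number as a block, 515 genes were called over all time points, 10 at ZT5, 2 at ZT9 and 61 at ZT17, and no genotype or rhythm-difference call of a member changed; the rhythms within a genotype were not run with it. Of 26 pairs with the same number, 21 correlated above 0.1 (median 0.302, lowest -0.52). The labels do not say what the number stands for, and the main fits did not pair the samples by it. Whether the same number marks a shared batch was not tested. The lowest of the 8 transcripts, Slc1a5, averaged 127 normalized counts in controls.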

Other observations

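Among the other plasma membrane transporters, 11 of 31 were rhythmic in control and 12 of 31 in diabetic retinas, beside 21.8% and 23.9% of all expressed genes. The genes named here were chosen after their values were seen. Slc7a1, a carrier of arginine and lysine, had a daytime acrophase of ZT6.46 and an amplitude of 17.6% in controls (permutation p = 5e-06, adjusted p = 0.00071), and an amplitude of 5.01% in diabetic retinas that was not called (p = 0.38). The edgeR test of the difference in rhythm gave it an unadjusted p-value of 0.0075 and an adjusted p-value of 1. Slc1a7, a glutamate carrier of photoreceptors and bipolar cells, peaked at night in both genotypes, at ZT18.9 with an amplitude of 14.9% in controls and at ZT18.3 with 9.46% in diabetic retinas (adjusted p = 0.0011 and 0.018 in the empirical JTK_CYCLE permutation test). Slc6a20a, a proline carrier at a low level of 42.5 normalized counts in controls, had amplitudes of 45.9% and 57.8% with acrophases of ZT16.6 and ZT16.7.

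The intracellular transporters had 2 of 20 rhythmic in controls and 8 of 20 in the diabetic group, the genes of mTORC1 sensing 3 and 7 of 22, those of the ATF4 response 6 and 7 of 25, and the osmotic genes 2 and 3 of 8, beside the 21.8% and 23.9% of all expressed genes. Gene by gene, the edgeR test of a difference in rhythm called 0 genes of these 4 lists, and 0 had an unadjusted p-value under 0.05, while the shares themselves were not compared in a test.

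Of the 14 genes of glutamate and glutamine metabolism, 3 had a called rhythm in controls and 4 in the diabetic group, shares near the 21.8% and 23.9% of all expressed genes. Glul and Got1, chosen after their values were seen, were called in both genotypes. Glul, the glutamine synthetase of Muller glia, had an amplitude of 8.88% at ZT18.1 in controls and 9.05% at ZT15.9 in diabetic retinas (adjusted p = 0.019 and 0.022 in the permutation test), and Got1, an aspartate aminotransferase, 14.4% at ZT18.8 and 13.8% at ZT18.0 (adjusted p = 0.0018 and 0.0096). For both the test of a difference in rhythm gave an adjusted p-value of 1.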
